A study of Mus musculus with 75 samples.

Results

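Perineuronal nets are lattices of extracellular matrix around the cell bodies and dendrites of some neurons, and in the cortex they are best known around parvalbumin-expressing interneurons. Their scaffold is hyaluronan, a sugar chain made by hyaluronan synthases at the cell membrane. Chondroitin sulfate proteoglycans of the lectican family bind that chain, link proteins fasten them to it, and tenascin-R cross-links the proteoglycans. The 10 genes described here were chosen by name for this matrix, out of 14261 genes in the table, and all 10 were measured: the lecticans Acan (aggrecan), Bcan (brevican), Ncan (neurocan) and Vcan (versican), the link protein genes Hapln1, Hapln2 and Hapln4, the tenascin-R gene Tnr, and the synthase genes Has2 and Has3. Each passed the filter on low values in every fit.

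The samples came from visual cortex of 8-week-old C57BL/6 mice heterozygous for a Cre allele (Pv-Cre, Sst-Cre, Vip-Cre, Gad2-Cre or Emx-Cre) and also heterozygous for the RiboTag allele Rpl22-HA. RiboTag puts an epitope on a ribosomal protein in cells that carry Cre, so RNA bound to their ribosomes can be pulled from whole tissue. PV, SST and VIP are separate classes of inhibitory neuron, and Gad2-Cre covers inhibitory neurons in general and so overlaps all 3. Emx-Cre covers the excitatory neurons of the cortex, and its libraries held glial RNA as well, as given below. Mice of each line were dark-housed and then given 1, 3 or 7.5 h of light, kept in standard housing, or kept in the dark as the comparison. Each library was a pool of 3 mice, and each of the 25 groups had 3 libraries, except that 2 were used for SST dark and for SST standard, where replicate 2 is not analysed here. Values are normalized signals of no stated unit, and most low values were whole multiples of 1 step per library, taken here as 1 read. They can be compared between libraries for a gene but not between genes, unless given per kb of exon.

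Depth was 7.28 to 52.3 M gene reads over the 73 libraries, and it moved with condition: 14.6 ± 5.26 M at 7.5 h (SD, n = 15), against 33.2 ± 9.18 M in the dark (SD, n = 14). The class markers followed the labels: Pvalb averaged 11942 ± 4412 in the PV line (SD, n = 15), 10221 in Gad2, 1243 in SST, 146 in VIP and 105 in Emx. The Emx libraries also held glial RNA, with a summed signal of 10 astrocyte markers between 160996 and 219112, against 14818 to 31638 in the PV line. The 10 oligodendrocyte markers summed to 56809 to 79618 in Emx and to 4661 to 8056 in PV, and no marker of either list stood at 0 throughout a line. In pulled-down RNA of this kind, fewer cells of a type and less RNA per cell cannot be told apart.

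Promoter sequences are shown for Acan and Ncan, the lecticans called higher in the Emx line at 7.5 h of light when replicate number was a block. RefSeq (GRCm38.p6, a later build than the mm9 named for the reads) held promoters of 7 of the 10 genes, and the 250 bases before each annotated start were searched on both strands. The motifs were the cyclic AMP response element TGACGTCA, its shorter form TGACG (which any full element also holds), the AP-1 site TGANTCA, the EGR site GCGNGGGCG and the E-box CANNTG. Capitals below mark E-boxes, and bases run 5′ to 3′ on the gene's strand.
Acan, chr7:79052976-79053225, plus strand: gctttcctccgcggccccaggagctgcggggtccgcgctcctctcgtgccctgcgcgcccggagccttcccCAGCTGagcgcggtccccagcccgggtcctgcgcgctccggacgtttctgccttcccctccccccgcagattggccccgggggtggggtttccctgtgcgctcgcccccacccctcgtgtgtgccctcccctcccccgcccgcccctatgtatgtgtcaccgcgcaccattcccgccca
Ncan, chr8:70120845-70121094, minus strand: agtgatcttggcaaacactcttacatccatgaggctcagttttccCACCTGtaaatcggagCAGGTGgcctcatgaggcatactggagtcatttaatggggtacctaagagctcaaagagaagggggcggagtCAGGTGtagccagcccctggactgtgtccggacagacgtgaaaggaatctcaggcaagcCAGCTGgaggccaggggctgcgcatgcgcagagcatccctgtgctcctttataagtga
The Acan stretch was 74.4% G or C and held 1 E-box, whereas the Ncan stretch was 54.4% G or C and held 4. An E-box occurred in 66.2% of 32851 promoters cut in the same way. None of the other 4 motifs occurred in the 7 member promoters. Over all promoters they occurred in 1.55% (full element), 17.8% (shorter form), 6.75% (AP-1) and 4.70% (EGR).

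Most members differed between the lines. Between pairs of lines, each taken as the mean of its 5 conditions, 53 of 100 member comparisons were called with limma (adjusted p under 0.05, Benjamini-Hochberg over all genes, and a log2 difference of at least 1), against 19.7% of all gene comparisons over the 10 pairs. Acan differed in 9 of 10 pairs, Hapln4 and Has2 in 8 each, Hapln1 in 6, Bcan and Ncan in 5 each, Vcan, Hapln2 and Has3 in 4 each, and Tnr in 0. The members called, beside the share of all genes called, were 5 for PV against SST (13.8%), 8 for PV against VIP (26.5%), 3 for PV against Gad2 (9.15%) and 8 for PV against Emx (31.4%). They were 3 for SST against VIP (16.1%), 4 for SST against Gad2 (7.39%), 5 for SST against Emx (25.4%), 4 for VIP against Gad2 (16.9%), 6 for VIP against Emx (24.6%) and 7 for Gad2 against Emx (25.4%).

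Acan, the large proteoglycan most often used to mark mature nets, had its highest mean in the PV line. It lay between 134 and 435 in the PV line (median 271), between 5.96 and 90.0 in SST (median 34.0), between 7.95 and 163 in VIP (median 44.1), between 76.1 and 209 in Gad2 (median 120) and between 1.47 and 44.0 in Emx (median 9.35). The PV range overlapped those of VIP and Gad2 and stood clear of SST and Emx. PV exceeded SST by 8.64-fold (log2 3.11, SE 0.25, limma adjusted p = 6.72e-16), VIP by 6.66-fold (log2 2.74, SE 0.24, adjusted p = 6.28e-15), Gad2 by 2.31-fold (log2 1.21, SE 0.24, adjusted p = 4.42e-05) and Emx by 28.2-fold (log2 4.82, SE 0.24, adjusted p = 2.88e-25). In the order PV, Gad2, VIP, SST, Emx, VIP and SST were the only neighbours not distinguished (SST minus VIP, log2 -0.38, adjusted p = 0.219).

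The other lecticans had other orders. Ncan, a brain proteoglycan of the loose matrix as well as of nets, averaged 3322 ± 352 in PV, 4694 ± 476 in SST, 7118 ± 832 in VIP, 4327 ± 282 in Gad2 and 15767 ± 1846 in Emx. Its highest PV library (3906) was below its lowest Emx library (12768), and PV was 4.74-fold lower than Emx (log2 -2.25, SE 0.06, limma adjusted p = 1.59e-39). SST and Gad2 were the neighbours not distinguished (log2 0.10, adjusted p = 0.241). Bcan, the short lectican of the adult brain, averaged 1256 ± 278 in PV, 479 ± 87.9 in SST, 510 ± 131 in VIP, 766 ± 119 in Gad2 and 2173 ± 220 in Emx. Among the inhibitory classes it was highest in PV, by 2.61-fold over SST (log2 1.39, SE 0.11, adjusted p = 4.21e-16) and 2.50-fold over VIP (log2 1.32, SE 0.11, adjusted p = 2.01e-16), while SST and VIP were not distinguished (adjusted p = 0.649). Vcan, the most widely expressed lectican of the body, ran the other way, at 68.7 ± 23.3 in PV, 114 ± 24.0 in SST, 265 ± 68.8 in VIP, 185 ± 51.9 in Gad2 and 188 ± 39.0 in Emx. It was 3.88-fold lower in PV than in VIP (log2 -1.96, SE 0.15, adjusted p = 1.82e-17), and Gad2 and Emx were not distinguished (log2 -0.05, adjusted p = 0.804). The 6 oligodendrocyte precursor markers summed to 1063 to 1847 in VIP and to 298 to 551 in PV. They summed to 395 to 571 in SST, 379 to 544 in Gad2 and 5712 to 7656 in Emx. VIP and PV were apart both in these sums and in Vcan, and Gad2 and Emx were apart in these sums only. The part of precursor RNA in the Vcan differences was not tested. Nor was the part of glial RNA in the Emx levels of Ncan and Bcan tested.

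Of the link proteins, Hapln4, known as a brain link protein of inhibitory synapses and nets, was also highest in PV. It lay between 12148 and 17075 in PV (median 14220), between 2413 and 3313 in SST (median 2894), between 805 and 1480 in VIP (median 1124), between 5928 and 8614 in Gad2 (median 7325) and between 2295 and 2880 in Emx (median 2636). Every PV library was above every library of the other lines, and every VIP library was below. PV exceeded VIP by 12.7-fold (log2 3.67, SE 0.07, limma adjusted p = 1.13e-43) and SST by 4.98-fold (log2 2.32, SE 0.08, adjusted p = 1.33e-32), whereas SST and Emx were not distinguished (log2 0.14, adjusted p = 0.116).

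Hapln1, the cartilage-type link protein that is needed for compact nets, lay between 2093 and 2830 in PV (median 2358), between 313 and 694 in SST (median 495), between 555 and 806 in VIP (median 668), between 3607 and 4602 in Gad2 (median 3985) and between 467 and 691 in Emx (median 564). No Gad2 library overlapped any library of another line. Gad2 was above each of the 3 classes that it covers: SST was lower by 3.06 on the log2 scale (SE 0.06, limma adjusted p = 3.04e-41) and VIP by 2.58 (SE 0.06, adjusted p = 3.18e-39). PV was 1.71-fold lower than Gad2 (log2 -0.77, SE 0.06, adjusted p = 6.47e-16), which is past the p threshold but below the log2 difference of 1 asked of a call. For no other member was the Gad2 mean above all 3 class means. Hapln2, a link protein of nodes of Ranvier made by oligodendrocytes, averaged 7.45 ± 4.89 in PV, 13.3 ± 6.49 in SST, 12.97 ± 9.74 in VIP, 10.8 ± 4.01 in Gad2 and 70.8 ± 17.8 in Emx, the line with the high oligodendrocyte sums given above. Emx was above each of the other 4 lines (PV minus Emx, log2 -3.36, SE 0.35, adjusted p = 1.60e-12), and no pair among those 4 was called. The part of oligodendrocyte RNA in this was not tested.

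Tnr and the synthases completed the set. Tnr averaged 1486 ± 335 in PV, 1078 ± 272 in SST, 757 ± 152 in VIP, 953 ± 178 in Gad2 and 971 ± 201 in Emx. It was the flattest member: 7 of its 10 pairs passed the adjusted p, and the largest of these, PV over VIP, was 1.95-fold (log2 0.97, SE 0.13, limma adjusted p = 2.45e-09). Has3, a synthase of shorter hyaluronan chains, averaged 115 ± 34.5 in PV, 47.4 ± 17.6 in SST, 40.6 ± 35.6 in VIP, 73.7 ± 23.3 in Gad2 and 45.9 ± 13.4 in Emx, with PV above SST by 2.49-fold (log2 1.32, SE 0.33, adjusted p = 6.87e-04). Has2, the synthase of long chains, was near the floor in PV at 2.30 ± 2.68 and in SST at 3.70 ± 3.62, and averaged 28.1 ± 17.2 in VIP, 22.6 ± 6.10 in Gad2 and 7.50 ± 3.79 in Emx. PV was lower than VIP (log2 -3.41, SE 0.32, adjusted p = 4.73e-14), and the tests did not distinguish PV from SST (adjusted p = 0.290) or VIP from Gad2 (adjusted p = 0.748). Some PV and SST libraries stood at 0 for Has2, so the size of that difference depends on the value added before the logarithm.

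**Figure D1:**
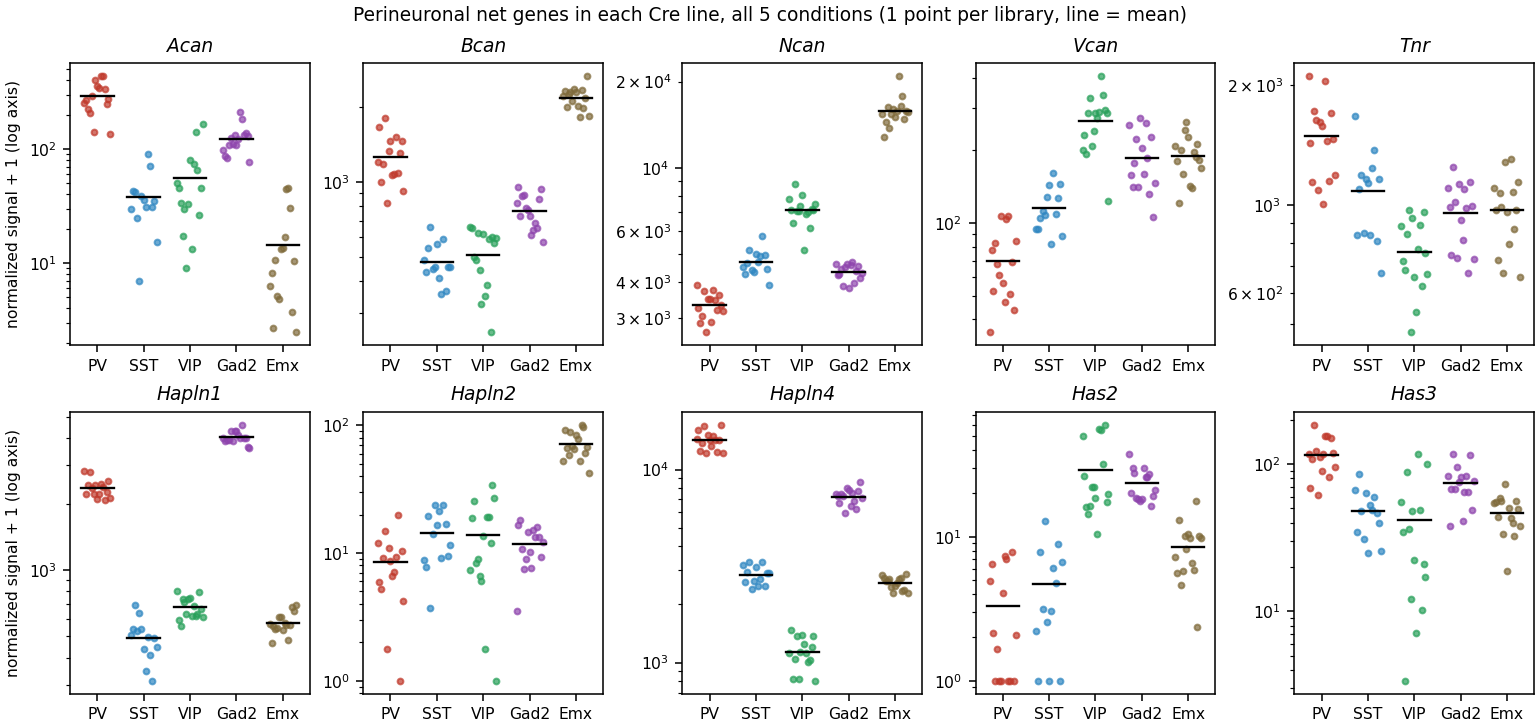
Normalized signal plus 1 (log axis) of the 10 genes in every library, by Cre line; each point is 1 library over all 5 conditions and the bar is the mean (n = 15 per line, 13 for SST). Acan, Hapln4, Tnr and Has3 have their highest mean in PV (288, 14216, 1486 and 115), Hapln1 in Gad2 (4033), Vcan and Has2 in VIP (265 and 28.1), and Ncan, Bcan and Hapln2 in Emx (15767, 2173 and 70.8). The Emx libraries also held glial RNA, whose part in these means was not tested.

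Per kb of exon, so that genes can be set side by side, the make-up of the lectican RNA also differed. Acan was 4.29 ± 1.22% of the summed lectican signal in PV (SD, n = 15), 0.606 ± 0.341% in SST, 0.617 ± 0.491% in VIP, 1.90 ± 0.573% in Gad2 and 0.0600 ± 0.0586% in Emx. Its lowest share in a PV library (2.41%) was above its highest in SST (1.49%), VIP (1.76%) and Emx (0.196%). Ncan and Bcan were close in PV, at 51.4 ± 4.29% and 43.8 ± 4.31%, whereas Ncan held 79.8% in SST, 84.0% in VIP, 68.7% in Gad2 and 75.4% in Emx. Among link proteins Hapln4 held most in every line, from 70.7 ± 3.599% in VIP to 90.2 ± 1.04% in PV. These shares are given as descriptions, without a test, and they are shares of ribosome-bound RNA and not of protein. The part of glial RNA in the Emx shares was not tested.

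**Figure D2:**
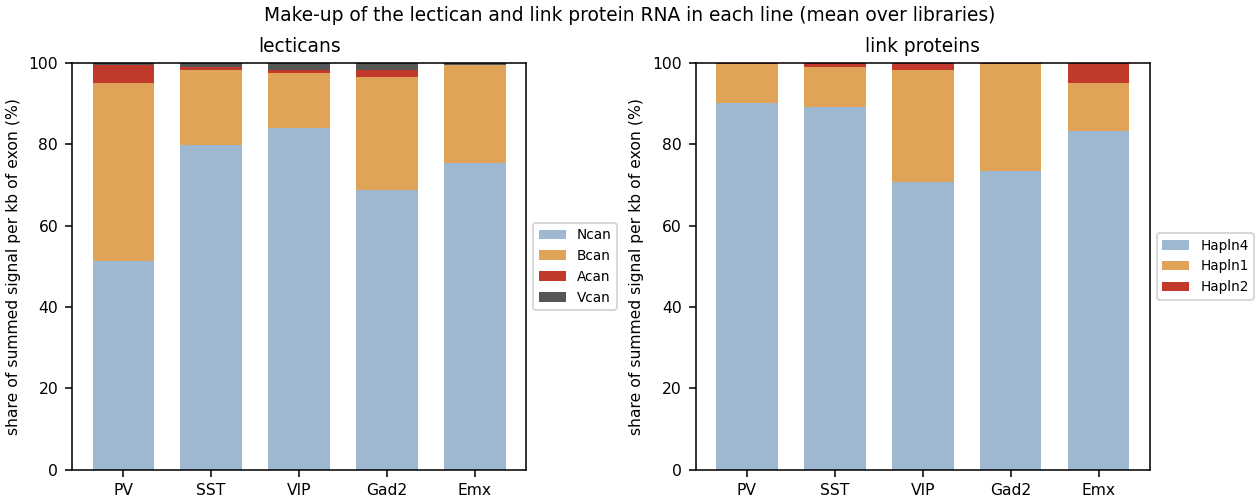
Mean share (%) of each gene in the summed signal per kb of exon of the 4 lecticans (left) and the 3 link proteins (right) in each line; bars stack to 100. Acan reaches 4.29% in PV against 0.0600% in Emx, and Hapln2 reaches 4.87% in Emx against 0.1004% in PV.

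Light after dark housing was given to ask which genes each neuron class changes with visual experience. Acan was the 1 member called higher without the replicate block, at 7.5 h, and its largest fitted change was in the Emx line. With the block, Ncan was also called higher at 7.5 h in Emx, and Vcan in the average over lines. Each line was fitted by itself, and each of 1 h, 3 h and 7.5 h of light and standard housing was compared with dark. Of the 200 member comparisons so made, 1 was called with limma and 9 had an unadjusted p under 0.05, against 0.495% and 4.92% of all gene comparisons. Libraries of a line with the same replicate number deviated together, and with the number as a block 5 of the 200 were called, against 4.82% of all gene comparisons. Without the block the share of members called was close to that of all genes, and with the block it was lower. The 5 calls with the block were those of Acan in Emx, Gad2 and PV, Ncan in Emx and Bcan in Gad2, all at 7.5 h.

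In the Emx line Acan read 43.3, 44.0 and 29.3 at 7.5 h, against 5.31, 7.16 and 1.71 in the dark. At 3 h it read 12.2, 12.6 and 15.8, and at 1 h 9.62, 4.12 and 3.79. All libraries at 3 h and at 7.5 h were above all dark libraries, and those at 1 h overlapped them. All libraries stood above dark in this way for 7.66% of genes at 3 h and 8.43% at 7.5 h, and the 1 h contrast called 0.641% of genes. The values rest on few reads, 14 to 36 per library at 7.5 h and 2 to 11 in the dark. At 7.5 h the rise was 7.56-fold (log2 2.92, SE 0.57, limma adjusted p = 0.00929, and 4.01e-04 with the replicate block). That contrast called 3.80% of all genes, and 25.9% with the block. At 3 h the difference was log2 1.48 (SE 0.57) and was not called (adjusted p = 0.371, and 0.0825 with the block), where 1.07% of genes were called, and 12.3% with the block. The call was lost without dark replicate 3, the lowest dark library (log2 2.45, adjusted p = 0.0544), and without replicate number 1, 2 or 3 in all conditions of the line (log2 2.64 to 3.15, adjusted p from 0.0927 to 0.174).

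Markers of other cell types in the Emx libraries stood as follows beside this rise. Acan in this line, at 38.9 ± 8.28 at 7.5 h, was below its dark level in PV (247 ± 21.4) and Gad2 (87.8 ± 7.53). Pvalb in the Emx line averaged 84.1 ± 44.1 at 7.5 h and 85.9 ± 38.6 in the dark, and the 6 PV markers summed to 2897 to 3969 at 7.5 h and to 3050 to 4041 in the dark, with 0 of 6 called. The 7 inhibitory markers summed to 4458 to 6002 at 7.5 h and to 3944 to 4993 in the dark. Their median log2 difference was 0.57, against -0.03 over all genes, with 0 of 7 called. Among them Gad2 lay between 411 and 645 at 7.5 h and between 274 and 321 in the dark, with no overlap (log2 0.70, SE 0.39, limma adjusted p = 0.416). The 10 astrocyte markers summed to 178495 to 219112 at 7.5 h and to 160996 to 205348 in the dark, with 0 of 10 called. Of 7 VIP markers 2 were called higher, among them Vip at 281 ± 210 at 7.5 h and 21.2 ± 6.87 in the dark (log2 3.46, SE 0.61, limma adjusted p = 0.00538). Vip was also at 259.6 ± 159 in standard housing, where Acan read 2.71, 9.35 and 1.47. No marker of these lists was at 0 in all libraries of a group, and the part of inhibitory RNA in the Acan rise was not tested. With the replicate block, 1 of 6 PV markers, 0 of 7 inhibitory markers, 2 of 10 astrocyte markers and 4 of 7 VIP markers were called higher. Also called higher were 2 of 8 excitatory markers and 1 of 6 SST markers. Called lower with the block were 4 of 10 oligodendrocyte markers and 1 marker each of the astrocyte, SST, excitatory, microglia and endothelial or pericyte lists.

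In the PV line, where Acan is most abundant, it read 435, 432 and 331 at 7.5 h, against 251, 266 and 224 in the dark. It read 403, 353 and 340 at 3 h and 205, 292 and 141 at 1 h. Libraries of 3 h and 7.5 h lay above all dark libraries, as they did for 3.14% and 5.25% of all genes. The 1.61-fold difference at 7.5 h (log2 0.68, SE 0.28) was not called without the block (limma adjusted p = 0.670) and was called with it (adjusted p = 0.0123). The contrast called 0.338% of genes without the block and 7.90% with it. In the same contrast the block called higher 3 of 10 astrocyte, 2 of 7 VIP, 2 of 7 inhibitory, 2 of 6 PV and 1 of 5 SST markers, and 1 inhibitory marker lower. No marker of these lists was called without it. The astrocyte markers summed to 15347 to 31638 at 7.5 h and to 15717 to 20454 in the dark in PV, and the PV markers to 66498 to 69423 at 7.5 h and to 68606 to 73017 in the dark. The part of these markers' cells in the PV difference was not tested.

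In the Gad2 line Acan read 209, 184 and 133 at 7.5 h, against 96.2, 85.8 and 81.5 in the dark. Libraries at 1 h (106 to 122.7) and 3 h (107 to 130.2) also lay above all dark libraries, as those of 7.5 h did, which held for 3.53%, 4.04% and 5.17% of all genes at 1, 3 and 7.5 h. The difference at 7.5 h was 1.95-fold (log2 0.97, SE 0.23, limma adjusted p = 0.134, and 0.00254 with the block), in a contrast that called 0.387% of genes without the block and 8.24% with it. The inhibitory markers in the Gad2 line summed to 148268 to 159981 at 7.5 h and to 137715 to 148136 in the dark, without overlap. With the block 2 of 7 inhibitory, 2 of 6 PV, 2 of 6 SST, 2 of 7 VIP and 1 of 10 astrocyte markers were called higher, and 1 SST, 1 astrocyte and 2 of 10 oligodendrocyte markers lower. Without it 1 SST marker was called higher. Their part in the Acan difference was not tested.

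In the VIP and SST lines Acan was not called at any time. VIP libraries read 73.1, 139 and 64.3 at 7.5 h, against 49.6, 44.6 and 32.5 in the dark, with no overlap, as for 6.17% of all genes (log2 1.04, SE 0.75, limma adjusted p = 1.00, and 0.594 with the block). The contrast called 0.254% of genes, and 1.61% with the block. At 1 h they read 16.1, 28.5 and 7.95, all below the dark libraries, as for 3.62% of genes, and this was not called either (log2 -1.37, SE 0.75, limma adjusted p = 1.00; 0.289% of genes called). SST libraries read 90.0, 70.1 and 29.99 at 7.5 h, against 28.4 and 41.4 in the dark. Those SST groups overlapped (log2 0.73, SE 0.68, adjusted p = 0.858), and without a dark replicate 2 the SST difference also carries one between replicate numbers (log2 0.62 with the block, adjusted p = 0.452). The SST contrast called 1.11% of genes, and 17.0% with the block.

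**Figure D3:**
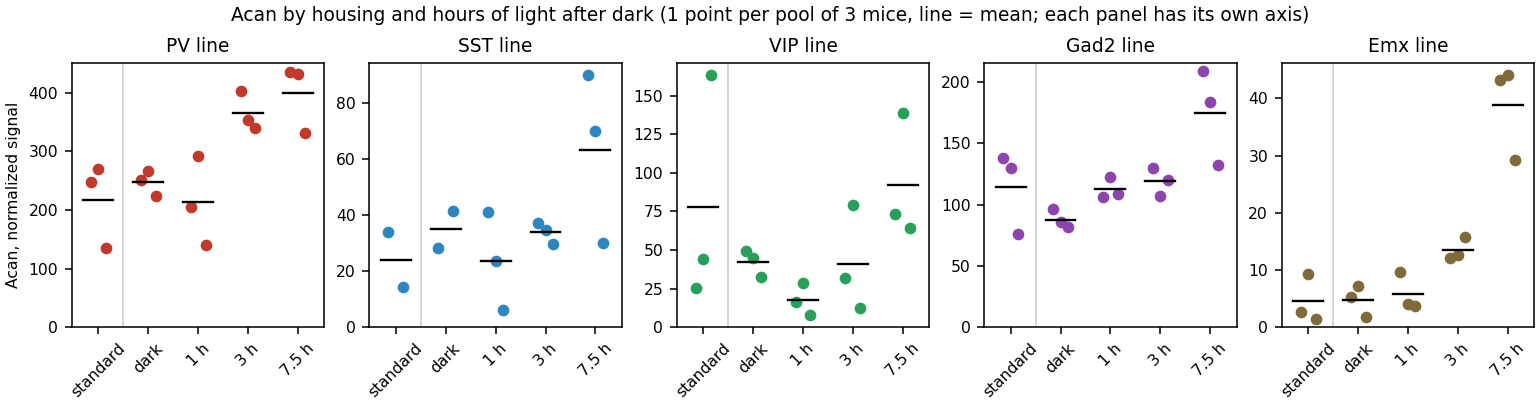
Acan, normalized signal (linear axis from 0, a separate scale in each panel), by Cre line and condition, in the order standard housing, dark, and 1, 3 and 7.5 h of light; points are libraries of 3 pooled mice and bars are means. At 7.5 h the means are 399 in PV, 63.4 in SST, 92.1 in VIP, 175 in Gad2 and 38.9 in Emx, against dark means of 247, 34.9, 42.2, 87.8 and 4.73.

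Averaged over the 5 lines in 1 fit of all 73 libraries, Acan was higher at 7.5 h than in the dark by 2.41-fold (log2 1.27, SE 0.25, limma adjusted p = 1.52e-04), with a higher mean in 5 of 5 lines. It was the 1 of 10 members called, in a contrast that called 15.1% of genes. At 1 h and at 3 h limma called 0 members, with 0 at an unadjusted p under 0.05, and 1.96% and 5.73% of genes (Acan at 3 h, log2 0.41, SE 0.25, adjusted p = 0.432). Without the Emx line, the Acan difference at 7.5 h was 1.81-fold (log2 0.86, SE 0.28, adjusted p = 0.0412) in a contrast that called 9.18% of genes. That call was lost without replicate 1 (log2 0.74, adjusted p = 0.320), without replicate 2 (log2 0.73, adjusted p = 0.324) and with a pseudocount of 0.1 (log2 0.86, adjusted p = 0.0604). Since libraries at 7.5 h were shallower than dark ones, 7.5 h was also set against standard housing, whose depth of 16.2 ± 6.48 M reads (SD, n = 14) was closer. There Acan was 2.50-fold higher over the 5 lines (log2 1.32, SE 0.25, adjusted p = 2.21e-04; 5.64% of genes called) and 8.60-fold higher in Emx (log2 3.10, SE 0.57, adjusted p = 0.0287; 0.486% called). The Emx call against standard housing was lost without any one replicate number (log2 2.85 to 3.597, adjusted p from 0.206 to 0.396). Without Emx the average was log2 0.87 (SE 0.28, adjusted p = 0.0765, and 0.0119 with the block; 2.88% and 14.0% of genes called). Both comparisons share the 7.5 h libraries.

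The replicate block added calls of other members to these 7.5 h comparisons. Against dark without Emx, Bcan was called lower (log2 -0.31, limma adjusted p = 0.00144, and 0.153 without the block) and Vcan higher (log2 0.47, adjusted p = 0.0149, and 0.0726 without it), where 25.5% of genes were called. Against standard housing Bcan was called lower over the 5 lines (log2 -0.23, adjusted p = 0.0106, and 0.322 without the block; 20.3% of genes called) and without Emx (log2 -0.26, adjusted p = 0.0144, and 0.396 without the block).

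Within lines, 7.5 h against standard housing gave 4 further calls with the block. In Emx, Hapln1 read 564, 481 and 563 at 7.5 h, against 676, 648 and 691 in standard housing, all lower, as for 6.59% of genes (log2 -0.33, limma adjusted p = 0.0225, and 0.381 without the block). Ncan in Emx read 20919, 16493 and 17778 at 7.5 h, against 14847, 15741 and 15676 in standard housing, all higher, as for 5.95% of genes (log2 0.25, adjusted p = 0.0131, and 0.526 without the block). The block called 15.1% of genes in that Emx contrast. Acan in PV at 7.5 h lay above all its libraries of standard housing, which read 248, 271 and 134, as did 4.28% of genes (log2 0.93, adjusted p = 0.00240, and 0.631 without the block; 4.15% and 0.0282% of genes called). Ncan in SST read 4926, 5774 and 4968 at 7.5 h, against 4429 and 3909 in standard housing, all higher, as for 9.99% of genes (log2 0.26, adjusted p = 0.0131, and 0.536 without the block; 14.0% and 0.634% of genes called). Apart from Acan in Emx, given above, no other member was called against standard housing in a line.

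Whether Acan responded more in one line than in another was not settled. A joint test of the 12 differences between lines in the response to 1, 3 and 7.5 h called 0 of 10 members with limma, 0 at an unadjusted p under 0.05, and 0.317% of all genes (Acan, F = 1.79, limma adjusted p = 1.00). With the block it also called 0 members, with 2 at an unadjusted p under 0.05, and 2.91% of genes (Acan, limma adjusted p = 0.193). The Emx response at 7.5 h exceeded the PV, SST, VIP and Gad2 responses by log2 2.24 (SE 0.77), 2.19 (SE 0.81), 1.88 (SE 0.77) and 1.95 (SE 0.77), and none of these was called (limma adjusted p from 0.613 to 1.00), in contrasts that called 0.148%, 0.120%, 0.253% and 0.141% of genes.

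Ncan and Bcan moved by less. In the Emx line Ncan read 20919, 16493 and 17778 at 7.5 h, against 15403, 12768 and 14498 in the dark, all higher, as for 8.43% of genes. The difference of 1.29-fold (log2 0.37, SE 0.12) was not called without the block (limma adjusted p = 0.122) and was called with it (adjusted p = 2.42e-04). That contrast called 3.80% of genes without the block and 25.9% with it. In the Gad2 line Bcan read 643, 681 and 654 at 7.5 h, against 819, 953 and 727 in the dark, and here all light libraries were the lower ones, as for 5.84% of genes. The fitted log2 difference of -0.33 (SE 0.17) had an adjusted p of 0.834 in limma without the block and 0.0407 with it. The Gad2 contrast called 0.387% of genes without the block and 8.24% with it. Over the 5 lines Bcan differed at 7.5 h by log2 -0.24 (SE 0.11, adjusted p = 0.132) and was called with the block (log2 -0.27, adjusted p = 0.00154), which called 33.3% of genes in that contrast.

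Vcan gave values in the opposite direction to Bcan over the 5 lines at 7.5 h, with log2 0.39 (SE 0.15, limma adjusted p = 0.0760) and a call with the block (log2 0.38, adjusted p = 0.0199). The block called 33.3% of genes in that contrast. The clearest separation of Vcan was in VIP, where it read 287, 405 and 338 at 7.5 h, against 199, 230 and 193 in the dark, all higher, as for 6.17% of genes. That VIP difference of 1.64-fold was not called (log2 0.72, SE 0.32, adjusted p = 0.929, and 0.255 with the block). Hapln1 in the Emx line was the member with the smallest p for standard housing, at 676, 648 and 691 in standard housing and 565, 467 and 553 in the dark, with no overlap, as for 3.11% of genes, and it was not called (log2 0.35, SE 0.13, unadjusted p = 0.0181, adjusted p = 1.00).

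Compared with dark, the link proteins, Tnr and the synthases were not called with light in any line, with or without the block. For Hapln4 the intervals were narrow: its log2 difference at 7.5 h lay between -0.08 and -0.04 over the lines, and the 95% intervals reached from -0.59 to 0.45. Hapln1 differed by log2 -0.38 to 0.09, with intervals from -0.88 to 0.43, and Tnr by -0.09 to 0.22, with intervals from -0.79 to 0.76. For the scarce genes the data allow much larger changes, as in PV, where the interval for Hapln2 ran from -1.27 to 2.47 and that for Has2 from -3.26 to 1.07. Has2 in SST read 5.11, 3.79 and 7.89 at 7.5 h, against 1.21 and 0 in the dark, and was not called (limma adjusted p = 0.473, and 0.0846 with the block).

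**Figure D4:**
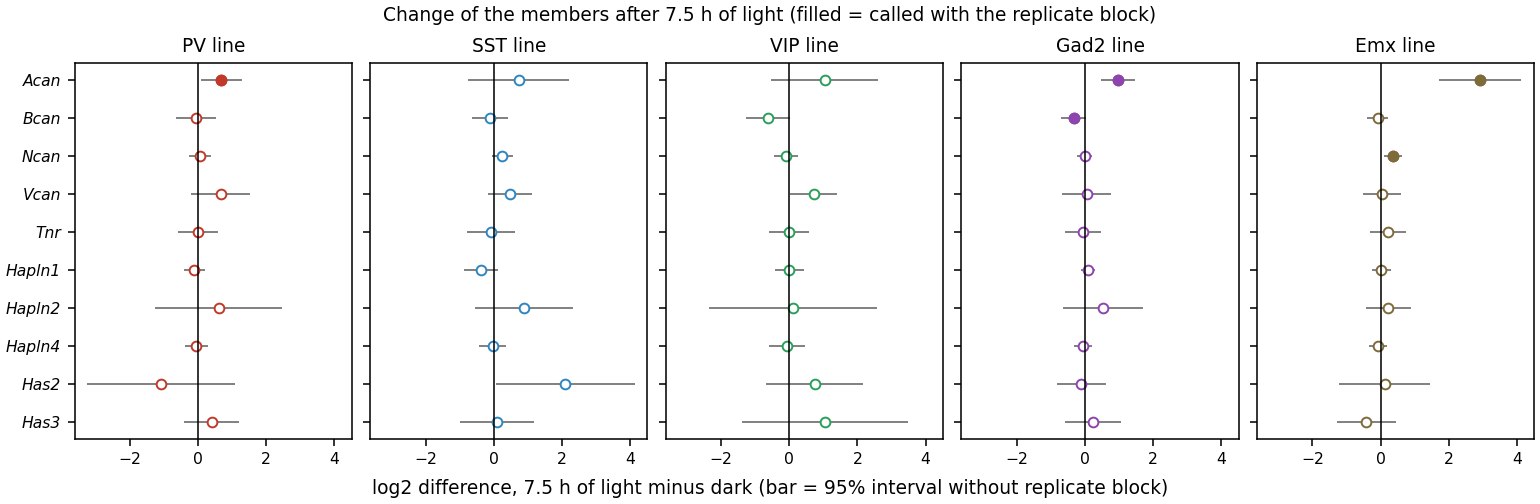
Fitted log2 difference of each gene between 7.5 h of light and dark in each line, with its 95% interval from the fit without the replicate block; filled points were called with the block. Acan lies at 0.68 in PV, 0.73 in SST, 1.04 in VIP, 0.97 in Gad2 and 2.92 in Emx, and the intervals of Hapln4, Hapln1 and Tnr include 0 in every line.

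Standard housing was not distinguished from dark housing on these genes. With limma 0 of 10 members were called in each line, where 0.113% of genes were called in PV, 0 in SST, 0.127% in VIP, 0.0492% in Gad2 and 0.120% in Emx, with 1 of the 50 comparisons at an unadjusted p under 0.05 (Hapln1 in Emx, given above), and the average over lines gave 0 calls and 0 at that p in a contrast that called 0.753% of genes. For Acan the average difference was log2 -0.05 (SE 0.25, 95% interval -0.56 to 0.46). VIP libraries in standard housing were the most uneven for Acan, at 25.3, 44.1 and 163.

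Over the 25 group means (log2 scale) the members fell into different patterns, given here as descriptions because the points share lines, libraries and depth. Hapln4 followed Has3 (Pearson r = 0.92), Tnr (r = 0.82) and Hapln1 (r = 0.78). Acan followed Hapln1 (r = 0.73) and Hapln4 (r = 0.68) and ran against Ncan (r = -0.79). Vcan ran against Tnr (r = -0.92) and with Has2 (r = 0.81), and Ncan with Hapln2 (r = 0.87). Among 13705 genes, the closest to Acan were Stip1 (r = 0.96), Tgfbr2 (r = 0.94) and Idnk (r = 0.93). Those closest to Hapln4 were Kcnab2 (r = 0.99), Plch2 (r = 0.98) and Ldhb (r = 0.98), and those closest to Ncan were Dkk3 (r = 0.99), Mras (r = 0.99) and Tmbim1 (r = 0.99). For Hapln1 they were Acot13 (r = 0.94), Pdlim3 (r = 0.93) and Gdpd3 (r = 0.92), for Bcan Gsg1l (r = 0.97), Phactr1 (r = 0.96) and Car2 (r = 0.96), and for Vcan Trp53i11 (r = 0.96), Homer2 (r = 0.96) and Cpne7 (r = 0.95).

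Of the genes that build, bind or cut this matrix, some were called with light. In single lines without the block, these were binding partners and proteases or their inhibitors only. With the block, and in the average over lines at 7.5 h, every list held calls. Over the 3 light times and 5 lines, where 0.632% of all gene comparisons were called and 6.09% with the block, limma called 0 of 210 comparisons of 14 chondroitin chain synthesis genes (9 at an unadjusted p under 0.05), 0 of 135 of 9 sulfation genes (7 unadjusted) and 0 of 135 of 9 hyaluronan turnover genes (10 unadjusted). With the block these lists gave 6 higher and 2 lower, 2 higher and 4 lower, and 2 higher and 2 lower (3.81%, 4.44% and 2.96% called). Among 15 net-binding partners 10 of 222 comparisons (4.50%) were called, all higher and all of Nptx2, a secreted pentraxin that gathers AMPA receptors on interneurons. Nptx2 averaged 3653 ± 960.1 at 7.5 h and 319 ± 18.4 in the dark in Emx, and 437 ± 80.9 at 7.5 h and 36.8 ± 18.5 in the dark in PV (log2 3.67, SE 0.35, adjusted p = 4.74e-05). In Emx it was past the threshold at 1 h (log2 2.13, SE 0.22, adjusted p = 8.39e-05), a time at which Acan overlapped the dark libraries. With the block the partners gave 18 higher and 6 lower (10.8%).

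Of 18 tested genes for matrix proteases and their inhibitors, 4 of 270 comparisons were called higher and 1 lower (1.85%), and 13 higher and 14 lower with the block (10.0%). Timp1, an inhibitor of matrix metalloproteinases, averaged 206 ± 32.2 at 7.5 h and 1.91 ± 1.73 in the dark in Emx (log2 6.30, SE 0.82, limma adjusted p = 5.35e-04). In SST it averaged 254 ± 231 at 7.5 h and 4.17 ± 2.47 in the dark (log2 5.33, SE 0.84, adjusted p = 0.00694). Also in SST at 7.5 h, Adamts1, a protease that cuts lecticans, was higher (log2 1.03, SE 0.21, adjusted p = 0.0338) and Mmp9, a gelatinase, fell by 0.95 on the log2 scale (SE 0.14, adjusted p = 0.00421). Between lines, the proteases Adamts15 and Adamts8, of the family that cuts aggrecan, were higher in PV than in Emx (log2 6.28, SE 0.20, adjusted p = 8.97e-35, and log2 5.77, SE 0.26, adjusted p = 3.33e-27). Of 18 genes of that list tested, 7 were higher and 8 lower in PV than in Emx, where 31.4% of all genes were called. Averaged over the 5 lines at 7.5 h, each of the 5 lists had 1 gene higher, and 0 to 2 lower, in a contrast that called 15.1% of all genes, with list medians from -0.11 to 0.06 and a median of -0.02 over all genes. The higher ones were Chpf (log2 0.34, SE 0.12), Chst11 (log2 0.31, SE 0.10), Tmem2 (log2 0.42, SE 0.09), Nptx2 (log2 3.23, SE 0.14) and Timp1 (log2 3.88, SE 0.39). The lower ones were Chst12, Hmmr, Cspg5, Adamts5 and Mmp9, with log2 differences from -1.21 (Hmmr) to -0.40 (Cspg5).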

How the data were processed

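Ribosome-bound RNA was amplified by SPIA from small inputs and sequenced as single-end 50-bp reads, per the labels' protocols. The values are a signal that the authors normalized before they deposited it, without naming its unit. In each library, 92.9 to 96.7% of low values (at most 20 times the smallest step) fell within 0.1 of a whole number of steps, and the step, taken as 1 read, gave the depths above. The submitters' processing notes name mm9, BWA, Cuffdiff 2.2.1, Cuffnorm, TopHat2 2.0.13 and Bowtie2 2.1.0.0, without settings, so multiply mapped reads were not examined. Depth of the abundant members is ample, and replicates limit the precision there. Counting limits Acan in Emx, Has2 and Hapln2. It also limits the lowest libraries of Acan in SST (5.96) and VIP (7.95) and of Has3 in VIP (2.38).

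Of 14284 rows, 23 named as dates were dropped. Genes listed at 0 in some library despite a median of 50 reads or more elsewhere were set aside (11 to 30 per line, 48 in the fit of all lines), none of them a member. A gene entered a fit when 3 or more libraries reached a signal of 1. limma 3.58.1 in R 4.3.3 (statmod 1.5.0), with trended and robust moderation, was run on log2(signal + 1), so folds understate changes of low genes. All tests were two-sided, with a 5% false discovery rate in each contrast over all genes. Spreads are SD over libraries. That replicates are separate pools of mice is stated in the series' design.

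Replicate numbers were checked for pairing within each line, on deviations from group means. Same-number libraries correlated in every pair (r at least 0.107), so values with the number as a block are given where they change a call. The members and the gene lists were chosen with earlier results of these data known. Exon lengths are the union of protein-coding exons of GENCODE vM21. Levels and calls of all 10 members are covered in the comparisons with dark and between lines; the comparisons added later give Acan and the members called. Named from other lists are at most 4 called genes per list, with the 3 genes most like a member; Adamts1 in SST, the marker values and the closest separations were chosen after values were seen. Alternatives covered the pseudocount, the filter, the scaling, the block and left-out replicates. The average without Emx, 7.5 h against standard housing, single libraries left out, and Emx against each other line at 7.5 h were chosen after seeing the data. The tests were also run on simulated data.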

Additional observations from a re-analysis of the deposited data

How the results depend on the processing

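With the replicate block, calls in the lines numbered 1 in PV, 2 in Gad2 and 2 in Emx, against 0, 0 and 1 without it, and 3 in the average over lines, against 1. Same-number pairing was checked as described above, and the block left the counts in SST and VIP against dark, between lines and in the joint test of lines and times as they were. In the comparisons added later it gave, at 7.5 h against standard housing, 3 calls in Emx (1 without it), 1 in PV and 1 in SST (0 without it in each), 2 over the 5 lines (1 without it) and 2 without Emx (0 without the block), and at 7.5 h against dark without Emx 3 (1 without the block). Leaving out a replicate number gave 0 calls in Emx for each number, where fewer samples enter the fit, and 1 to 2 in the average over lines, the added one being Bcan without replicate 2 (log2 -0.33, adjusted p = 0.0277). Quantile normalization gave 2 calls in that average, the added one being Vcan (log2 0.48, adjusted p = 0.0299). Acan in Emx at 7.5 h stayed called under every other pseudocount, filter and scaling tried, with log2 1.73 at a pseudocount of 10 and 3.21 at 0.1. The 53 calls between lines became 50 to 54. Those lost were Has2 in PV against Emx and in SST against Emx (pseudocount 10 and quantile normalization), Has2 in Gad2 against Emx (pseudocount 10), and Has3 in VIP against Gad2 (without replicate 3). No direction reversed. The cause of these changes was not tested. A count model on recovered reads was not run, because the steps did not give whole reads for nearly all values.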
